A study of Mus musculus with 14 samples.

Results

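Late neutrophil granule and maturation genes are transcribed toward the end of granulocyte development, and 8 of them were followed here from old and young multipotent progenitors (MPPs): S100a8, S100a9, Ngp, Camp, Ltf, Lcn2, Hp and Cxcr2. Members were taken by gene symbol, as genes known from neutrophil maturation; the rule used no threshold on their values, but the set was proposed with earlier results of these data known. Each was measured by 1 probe set, and together they make 8 of the 19155 genes with a single annotated symbol. Bone marrow of wild-type C57BL/6 mice was sorted, and RNA of 20000 cells was hybridized to each of 14 whole-transcript arrays. The groups were old MPP3 and old MPP4 from 24-month-old mice (3 arrays each), and young MPP3 (3 arrays) and young MPP4 (5 arrays) from mice aged 8 to 10 weeks. No group carried a transgene or received a treatment. By the gate in the series record, both populations were negative for lineage markers and positive for cKit and Sca-1; MPP4 carried Flk2, and MPP3 carried CD48 but neither Flk2 nor CD150. The methods print the MPP3 gate as positive for CD150, and which of the sources holds is not known. MPP3 are biased toward myeloid output and MPP4 toward lymphoid output, and both still give several lineages. Antibodies to CD11b and Gr1, surface proteins of mature myeloid cells, were part of the lineage (Lin) panel used to remove such cells.

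Neutrophils build their granules in sequence. Primary granule proteins such as myeloperoxidase are made in promyelocytes, secondary granule proteins such as lactoferrin in myelocytes and metamyelocytes, and gelatinase, chemokine receptors and other effector proteins later still. Each wave of transcription largely ends before the next begins, and the C/EBP family of transcription factors, C/EBPε in particular, drives the secondary granule wave. Multipotent progenitors lie upstream of all of these stages.

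Array values were normalized values on an exponential scale, on which a value near 0 marks the dimmest probe sets and a gene brighter than more of its array has a larger value (the negative natural log of the proportion of probe sets ranked no lower than it). They therefore give a gene's rank within an array, a difference between groups is a difference in normalized value and no fold change, and values of different genes are not set against each other. The median array value lay between 0.662 and 0.675, and the number of arrays limits the precision. Flt3, which encodes Flk2, had values of 1.42 to 2.10 in old MPP3, 2.02 to 2.20 in young MPP3, 3.29 to 3.53 in old MPP4 and 2.77 to 3.53 in young MPP4, lower in MPP3 as gated. Kit was at 2.63 to 3.02 in old MPP3, 3.03 to 3.10 in young MPP3, 2.80 to 3.00 in old MPP4 and 2.88 to 3.06 in young MPP4. Cd48 was at 2.34 to 2.48 in old MPP3, against 2.50 to 2.69 in young MPP3 (difference -0.227, adjusted p 0.549 in limma). Both were thus lower in old MPP3 without overlap, as were 8.04% of all genes. A division with no counterpart in the labels appeared in the dimmest 33.3% of probe sets. Young MPP3 replicate 1, young MPP4 replicate 1 and young MPP4 replicate 2 went with the 6 old arrays (set 1), and the remaining 5 young arrays formed set 2. The young arrays also belong to an earlier series, so age and series cannot be told apart.

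All members but Lcn2 had their highest group mean in old MPP3. The margin over young MPP3 was wide for S100a8 and Hp, but the old and young arrays of Hp overlapped. Groups did not overlap for 2 of 8 members between old and young MPP3, against 6.14% of all genes with old higher. Between MPP3 and MPP4 in old mice they did not for 6 of 8, against 7.6% of all genes with MPP3 higher. Ltf and Lcn2 stayed among the dimmest 33.3% of ranked probe sets on all 14 arrays. With 3 to 5 arrays per group, no member passed an adjusted p of 0.05 in any comparison in the limma fits over all genes.

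**Figure D1:**
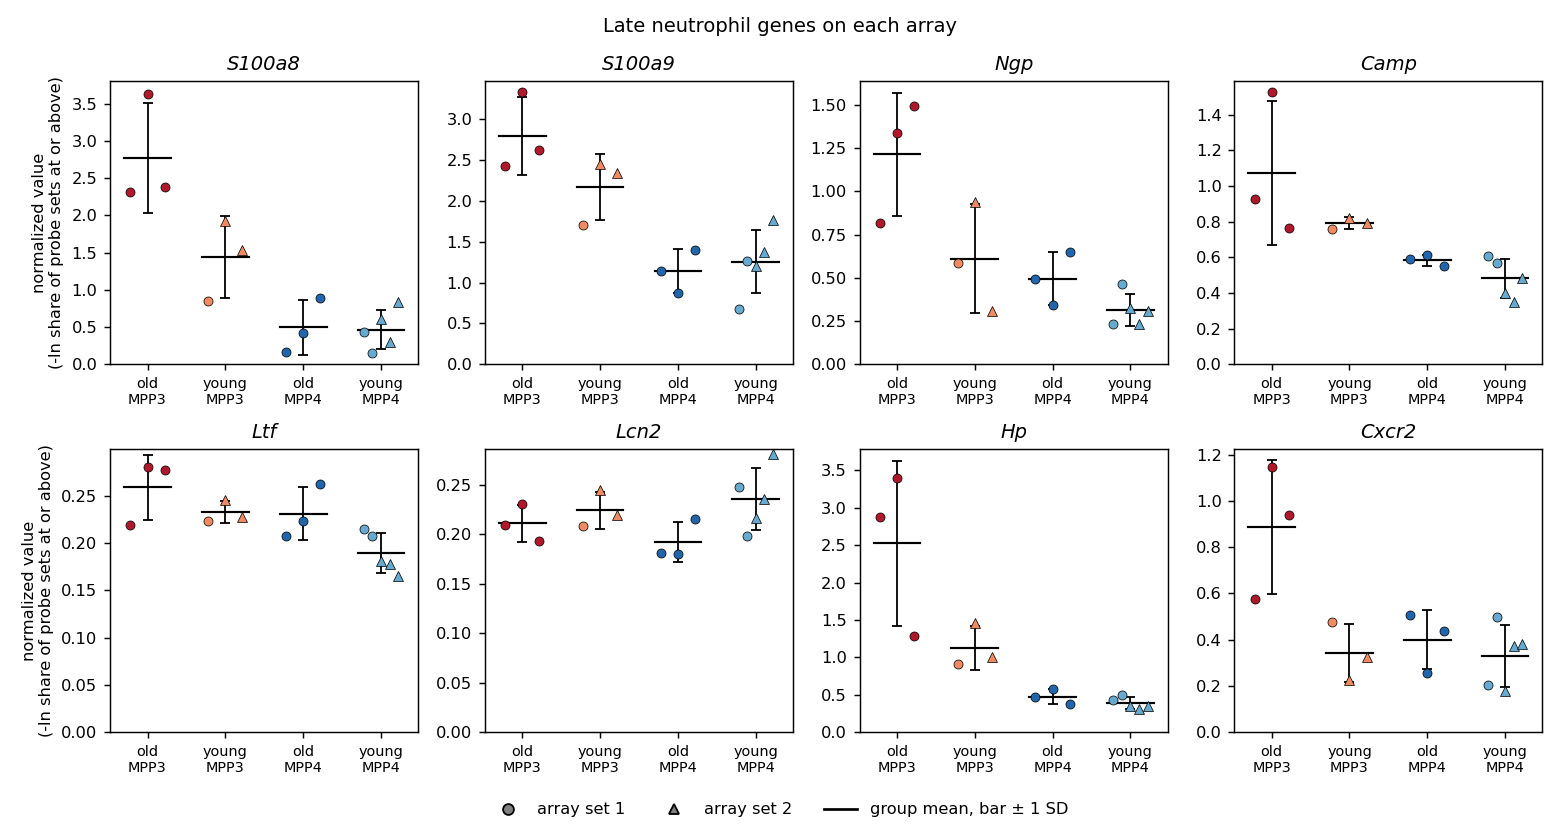
Normalized value (vertical axis, exponential rank scale, no unit) of each member on each array, with groups along the horizontal axis as old MPP3, young MPP3, old MPP4 and young MPP4. Circles are arrays of set 1 and triangles arrays of set 2, the horizontal line is the group mean and the bar spans 1 SD on each side. S100a8 reached 2.31 to 3.63 in old MPP3, and Ltf and Lcn2 stayed at or below 0.281 everywhere.

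S100a8 and S100a9 encode the subunits of calprotectin, a calcium-binding protein that fills the neutrophil cytosol and starves microbes of zinc and manganese. They are neighbors on mouse chromosome 3 (RefSeq annotation of GRCm38.p6, chr3:90669071-90670034 for S100a8 and chr3:90692630-90695721 for S100a9). Their promoters are shown because the pair had the highest correlation of any pair of members over the 14 arrays, and they span the 250 bases before each start site, 5′ to 3′ on the gene's strand, at chr3:90668821-90669070 (plus strand) and chr3:90695722-90695971 (minus strand). Capitals mark matches to TTNNGNAA or its reverse complement TTNCNNAA, a relaxed form of the C/EBP motif.
S100a8: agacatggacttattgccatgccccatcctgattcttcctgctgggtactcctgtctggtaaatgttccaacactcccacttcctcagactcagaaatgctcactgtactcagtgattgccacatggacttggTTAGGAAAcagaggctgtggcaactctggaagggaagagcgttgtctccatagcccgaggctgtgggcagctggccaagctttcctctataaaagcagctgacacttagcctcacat
S100a9: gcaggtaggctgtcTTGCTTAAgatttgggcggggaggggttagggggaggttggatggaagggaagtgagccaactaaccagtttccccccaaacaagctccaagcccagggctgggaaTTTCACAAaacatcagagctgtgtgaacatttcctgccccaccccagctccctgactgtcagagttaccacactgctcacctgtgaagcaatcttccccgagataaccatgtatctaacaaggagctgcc

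S100a8 had normalized values of 2.31, 3.63 and 2.38 in old MPP3, against 0.846, 1.93 and 1.54 in young MPP3. It had values of 0.167, 0.424 and 0.896 in old MPP4, against 0.436, 0.157, 0.609, 0.296 and 0.834 in young MPP4. All 3 old MPP3 arrays lay above all 3 young MPP3 arrays, and the MPP4 groups overlapped throughout. In terms of rank, 9.92%, 2.65% and 9.27% of ranked probe sets were at or above S100a8 on the old MPP3 arrays, against 42.9%, 14.5% and 21.4% on the young MPP3 arrays. The difference of old minus young MPP3 was 1.34 (SE 0.464, 95% interval 0.162 to 2.51), with an unadjusted p of 0.0324 and an adjusted p of 0.576 in limma. S100a8 thus stood higher in old MPP3 on every array without passing the threshold over all genes. Without old MPP3 replicate 2, its highest array, the difference was 0.906, and with array weights it was 0.879. In MPP4, old minus young was 0.0290 (SE 0.201, 95% interval -0.442 to 0.50, adjusted p 0.979 in limma), and its sign turned when old MPP4 replicate 3 (-0.171), young MPP4 replicate 2 (-0.0484) or young MPP4 replicate 4 (-0.0136) was left out.

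S100a9 had values of 2.43, 3.33 and 2.62 in old MPP3, against 1.71, 2.45 and 2.34 in young MPP3. In MPP4 it had 1.14, 0.868 and 1.40 in old mice, against 0.681, 1.26, 1.2, 1.37 and 1.77 in young mice. The old and young MPP3 arrays overlapped narrowly, since old MPP3 replicate 1 (2.43) fell just under young MPP3 replicate 2 (2.45). Unlike S100a8, S100a9 was outside the dimmest 33.3% of ranked probe sets on all 14 arrays. Old minus young was 0.626 in MPP3 (SE 0.314, adjusted p 0.665) and -0.120 in MPP4 (SE 0.234, adjusted p 0.903), both by limma. In MPP3 it was 0.357 without old MPP3 replicate 2, 0.395 without young MPP3 replicate 1, 0.242 with array weights and 1.09 over the arrays of set 1 alone. In MPP4 its sign turned over set 1 alone (0.166), with a replicate block (0.0882), without old MPP4 replicate 2 (0.0141) and without young MPP4 replicate 5 (0.00766), so no direction is given for S100a9 there.

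Ngp, Camp, Ltf and Lcn2 encode proteins stored in secondary granules. Ngp is the neutrophilic granule protein, related to the cathelicidins, Camp is cathelicidin itself, an antimicrobial peptide precursor, Ltf is the iron-binding protein lactoferrin, and Lcn2 is a lipocalin that binds bacterial siderophores. Camp (chr9:109847377-109849456), Ngp (chr9:110419808-110423012) and Ltf (chr9:111019292-111042766) lie on chromosome 9, and Lcn2 (chr2:32384637-32387739) lies on chromosome 2. Ngp and Ltf are shown because they share the 8-base sequence TTGGGCAA before their start sites and had values of very different spread here. The windows are chr9:110419558-110419807 and chr9:111019042-111019291, both on the plus strand, with capitals as above.
Ngp: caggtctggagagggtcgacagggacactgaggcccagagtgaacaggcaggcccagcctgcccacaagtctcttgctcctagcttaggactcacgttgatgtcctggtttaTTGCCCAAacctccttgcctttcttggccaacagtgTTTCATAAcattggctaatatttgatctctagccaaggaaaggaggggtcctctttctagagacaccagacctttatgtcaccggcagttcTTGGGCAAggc
Ltf: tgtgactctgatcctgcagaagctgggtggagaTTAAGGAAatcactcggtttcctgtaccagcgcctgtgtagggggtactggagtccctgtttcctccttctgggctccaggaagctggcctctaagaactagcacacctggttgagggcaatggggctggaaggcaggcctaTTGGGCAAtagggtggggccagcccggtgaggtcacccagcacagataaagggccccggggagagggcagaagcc

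Promoter sequences were from RefSeq (GRCm38.p6), which matched 7 of the 8 members, and Hp was not matched. The strict palindrome TTNCGNAA was in 0 of the 7 windows and in 2.04% of 32851 promoters of the same length. The relaxed TTNNGNAA, which includes the strict form, was in 5 of 7 (S100a8, S100a9, Ngp, Ltf and Lcn2) and in 36.8% of all promoters. TTGGGCAA, itself a case of the relaxed motif, was searched on both strands after its matches had been seen and was in Ngp and Ltf, and in 0.709% of all promoters. Counted from the start site, it began at -138 (as TTGCCCAA, on the other strand) and at -11 in Ngp, and at -75 in Ltf. GAGGAA or TTCCTC, a core bound by PU.1 and other ETS factors, was in 4 of 7 (S100a8, Ltf, Lcn2 and Cxcr2) and in 23.3% of all promoters. These are matches of letters only.

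Ngp had values of 0.815, 1.34 and 1.49 in old MPP3, against 0.583, 0.938 and 0.309 in young MPP3. In MPP4 it had 0.495, 0.342 and 0.648 in old mice, against 0.235, 0.461, 0.326, 0.235 and 0.308 in young mice. In both populations the old arrays lay mostly above the young ones, with an overlap of old MPP3 replicate 1 with young MPP3 replicate 2 in MPP3. Old minus young was 0.606 in MPP3 (SE 0.239, 95% interval 0.00104 to 1.21, unadjusted p 0.0497, adjusted p 0.610) and 0.182 in MPP4 (SE 0.0781, 95% interval -0.00108 to 0.365, adjusted p 0.514), both by limma. With array weights the MPP3 value was 0.386. Ngp was the only member whose highest array was old MPP3 replicate 3 (1.49), and 6 of 14 arrays had it among the dimmest 33.3% of ranked probe sets.

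Camp had values of 0.927, 1.53 and 0.764 in old MPP3, against 0.758, 0.823 and 0.793 in young MPP3. A single array, old MPP3 replicate 2, set its group mean apart. The old minus young difference of 0.282 (SE 0.204, adjusted p 0.749 in limma) was 0.0539 without that array and 0.437 without old MPP3 replicate 3. In MPP4, Camp had 0.590, 0.611 and 0.550 in old mice, against 0.606, 0.567, 0.402, 0.348 and 0.484 in young mice, a difference of 0.102 (SE 0.0611, adjusted p 0.626 in limma) that became -0.00294 over the arrays of set 1 alone. Here the old arrays overlapped only with young MPP4 replicates 1 and 2, the young MPP4 arrays of set 1.

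Ltf and Lcn2 were dim throughout. Ltf had values of 0.219, 0.280 and 0.277 in old MPP3, 0.224, 0.245 and 0.228 in young MPP3, 0.208, 0.223 and 0.262 in old MPP4, and 0.165 to 0.215 (median 0.181) in young MPP4. Lcn2 had values of 0.210, 0.231 and 0.193 in old MPP3, 0.208, 0.245 and 0.220 in young MPP3, 0.182, 0.180 and 0.216 in old MPP4, and 0.199 to 0.281 (median 0.236) in young MPP4. At their highest, 75.6% and 75.5% of ranked probe sets were at or above Ltf and Lcn2, and the age groups overlapped in both populations. Old minus young MPP3 was 0.0264 for Ltf (SE 0.0283, 95% interval -0.0452 to 0.0980) and -0.0130 for Lcn2 (SE 0.0255, 95% interval -0.0774 to 0.0512), with adjusted p of 0.837 and 0.918 in limma. Their signs in MPP3 turned with array weights for Ltf (-7.84e-04) and over set 1 alone for Lcn2 (0.00290).

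Hp encodes haptoglobin, which binds free hemoglobin and, besides its synthesis in liver, is made by maturing granulocytes and stored in their granules. It lies on chromosome 8 (chr8:109575128-109579172). Hp had values of 2.88, 3.40 and 1.29 in old MPP3, against 0.906, 1.46 and 1.00 in young MPP3. In MPP4 it had 0.466, 0.580 and 0.380 in old mice, against 0.432, 0.499, 0.353, 0.313 and 0.344 in young mice. Old MPP3 replicates 1 and 2 were far above every other array, while replicate 3 lay inside the range of young MPP3, so that 5.64%, 3.34% and 27.5% of ranked probe sets were at or above Hp on the old MPP3 arrays, against 40.4%, 23.2% and 36.8% on the young MPP3 arrays. Old minus young was 1.40 in MPP3 (SE 0.571, 95% interval -0.0442 to 2.84, unadjusted p 0.0551, adjusted p 0.615) and 0.0871 in MPP4 (SE 0.0575, adjusted p 0.651), both by limma. It was 2.02 in MPP3 without old MPP3 replicate 3 and 0.960 without old MPP3 replicate 2.

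Cxcr2 encodes the receptor for CXCL1, CXCL2 and related chemokines that draws neutrophils out of the marrow. It lies on chromosome 1 (chr1:74153994-74161246). It had values of 0.575, 1.15 and 0.939 in old MPP3, against 0.476, 0.226 and 0.324 in young MPP3. In MPP4 it had 0.508, 0.257 and 0.437 in old mice, against 0.206, 0.50, 0.179, 0.374 and 0.382 in young mice. As for S100a8, all old MPP3 arrays lay above all young MPP3 arrays and the MPP4 groups overlapped. Old minus young MPP3 was 0.544 (SE 0.160, 95% interval 0.141 to 0.948), with an unadjusted p of 0.0174 and an adjusted p of 0.531 in limma, the lowest adjusted p among the members in this comparison. On normal scores of the ranks the difference was 0.833. In MPP4 it was 0.0724 (SE 0.0884, adjusted p 0.827 in limma).

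Across the members, 7 of 8 had a positive difference of old minus young MPP3, against 50.1% of all genes, with a median of 0.575 (0.314 with array weights) against 1.83e-04 over all genes. All 3 old MPP3 arrays lay above all young MPP3 arrays for 2 members (S100a8 and Cxcr2), against 6.14% of all genes, and 3 members (S100a8, Ngp and Cxcr2) had an unadjusted p under 0.05 with old higher, against 3.44% of all genes. In the other direction there were 0 members by either measure, against 8.04% of all genes without overlap and 4.75% at an unadjusted p under 0.05. At an adjusted p of 0.05, 0% of genes were called (limma, 0 of 19155, with 658 higher and 910 lower at an unadjusted p under 0.05). In MPP4, 6 of 8 members had a positive difference, against 49.8% of all genes, with a median of 0.0571, no member had groups that did not overlap (3.28% of all genes did, with old higher), and 0 members had an unadjusted p under 0.05 (4.5% of all genes did, with old higher). With old lower, 4.01% of all genes had no overlap and 5.27% an unadjusted p under 0.05, and 0 members had either. Again 0% of genes passed the adjusted threshold in limma, with 862 higher and 1009 lower at an unadjusted p under 0.05. In these bulk samples, fewer cells of a type and less RNA per cell cannot be told apart.

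**Figure D2:**
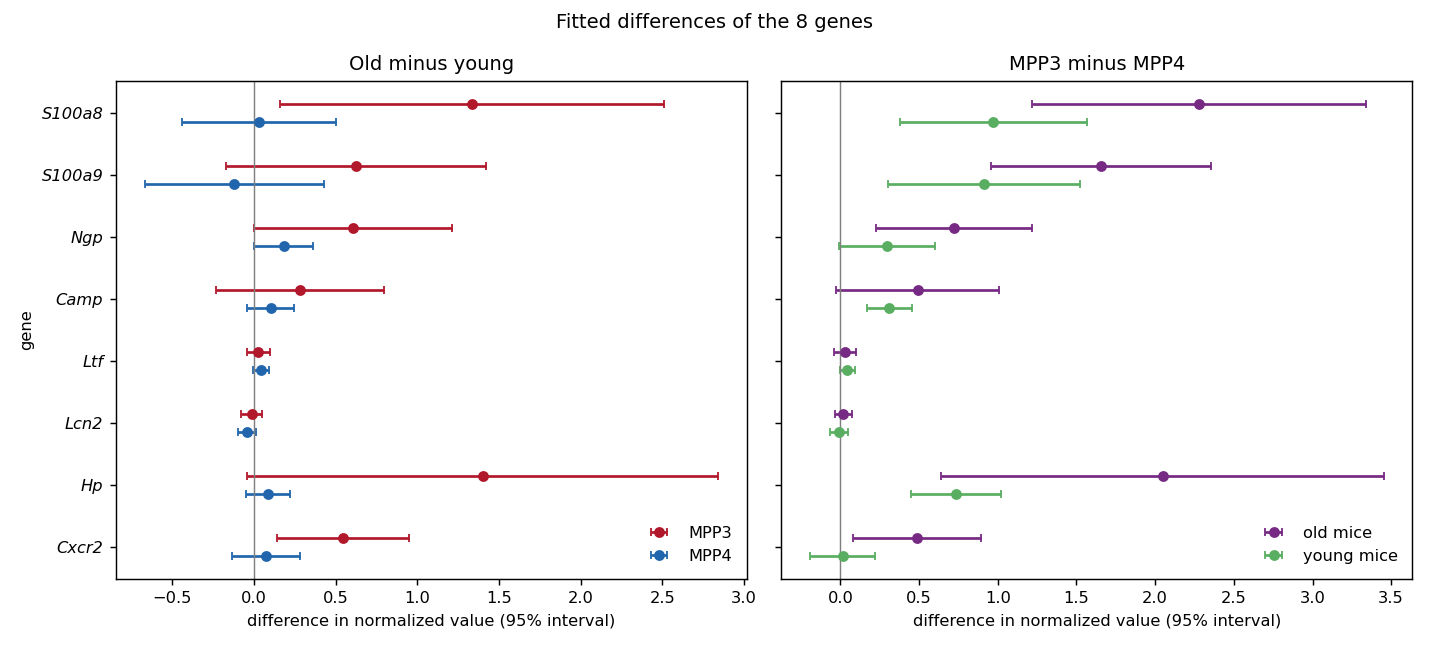
Difference in normalized value (horizontal axis, no unit) of each member for old minus young (left) and MPP3 minus MPP4 (right), with its 95% interval from limma. Points right of 0 are higher in old (age comparisons) or in MPP3 (population comparisons); the age difference in MPP3 was 1.34 for S100a8 and 1.40 for Hp, and that in MPP4 was 0.0290 and 0.0871.

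The age difference in MPP3 minus that in MPP4 was tested directly in 1 fit of all 14 arrays. It was 1.31 for S100a8 (SE 0.489, 95% interval 0.233 to 2.38, unadjusted p 0.0213), 1.31 for Hp (SE 0.528, 95% interval 0.155 to 2.47, unadjusted p 0.0296) and 0.472 for Cxcr2 (SE 0.180, 95% interval 0.0770 to 0.867, unadjusted p 0.0233). These were the 3 members with an unadjusted p under 0.05, against 2.83% of all genes in this direction, and their adjusted p in limma were 0.736, 0.775 and 0.755. The other differences were 0.746 for S100a9, 0.424 for Ngp, 0.180 for Camp, 0.0308 for Lcn2 and -0.0154 for Ltf (adjusted p 0.855 to 0.979 in limma), so that 7 of 8 members were positive, against 51.3% of all genes. A larger age difference in MPP3 than in MPP4 was therefore not established for any member over all genes, and 0% of genes were called, with 542 higher and 658 lower at an unadjusted p under 0.05. Hp passed with array weights (adjusted p 0.0285) and without old MPP3 replicate 3 (adjusted p 0.0157, difference 1.93), while Camp changed sign without old MPP3 replicate 2 (-0.0482). Over all genes, 574 passed with array weights and 10 without old MPP3 replicate 3.

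MPP3 and MPP4 were also compared within each age, where most members had a higher mean in MPP3 and none passed the adjusted threshold. In old mice all 8 members had a positive MPP3 minus MPP4 difference, against 51.7% of all genes, and 6 of 8 (all but Ltf and Lcn2) had groups that did not overlap, against 7.6% of all genes. In all, 5 members (S100a8, S100a9, Ngp, Hp and Cxcr2) had an unadjusted p under 0.05, against 3.64% of all genes with MPP3 higher. With MPP3 lower there were 0 members, against 9.03% of all genes without overlap and 6.19% at an unadjusted p under 0.05. The difference was 2.28 for S100a8 (SE 0.418, 95% interval 1.22 to 3.34, adjusted p 0.269), 1.66 for S100a9 (SE 0.276, 95% interval 0.959 to 2.36, adjusted p 0.239) and 2.05 for Hp (SE 0.555, 95% interval 0.641 to 3.45, adjusted p 0.381), by limma. It was 0.721 for Ngp, 0.490 for Camp, 0.486 for Cxcr2, 0.0275 for Ltf and 0.0190 for Lcn2. At the adjusted threshold 0% of genes were called in limma, with 697 higher and 1185 lower at an unadjusted p under 0.05. S100a8 passed (adjusted p 0.0412) in 1 fit of all 14 arrays, where 27 genes passed over all genes. Camp was 0.262 without old MPP3 replicate 2.

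In young mice 7 of 8 members had a positive MPP3 minus MPP4 difference, against 50.1% of all genes, and 4 of 8 (S100a8, Camp, Ltf and Hp) had groups that did not overlap, against 3.72% of all genes. Of these, Ltf was among the dimmest 33.3% of ranked probe sets on every array. An unadjusted p under 0.05 with MPP3 higher was found for 4 members (S100a8, S100a9, Camp and Hp), against 5.53% of all genes. With MPP3 lower there were 0 members, against 3.74% of all genes without overlap and 5.48% at an unadjusted p under 0.05. The difference for Hp was 0.735 (SE 0.122, 95% interval 0.450 to 1.02, unadjusted p 4.33e-04, adjusted p 0.0992 in limma), the lowest adjusted p of any member in any comparison. It was 0.972 for S100a8 (SE 0.254, adjusted p 0.238), 0.911 for S100a9 (SE 0.261, adjusted p 0.270) and 0.310 for Camp (SE 0.0617, adjusted p 0.148), by limma. It was 0.297 for Ngp, 0.0430 for Ltf, 0.0137 for Cxcr2 and -0.0119 for Lcn2. For Cxcr2 the populations overlapped in young mice, with a 95% interval of -0.193 to 0.220. Over all genes 0.131% were called, 0.0626% with MPP3 higher and 0.0679% with MPP3 lower, and no member was among them. Hp passed with a variance trend and robust estimation (adjusted p 0.0335), on normal scores of the ranks (0.0101), without the dimmest 33.3% of genes (0.0350), with array weights (0.0131) and over the arrays of set 2 alone (0.0398). Camp passed with array weights (0.0114) and over set 2 (0.0252), S100a8 with array weights (0.0184) and over set 2 (0.0466), and S100a9 with array weights (0.0217). Over all genes, 25 passed in the main fit, 1808 with array weights and 1492 over set 2. The counts were 48 with a variance trend, 52 on normal scores and 59 without the dimmest 33.3% of genes. The comparisons share arrays, so their values are given side by side and not as separate evidence.

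The order of the group means was the same for S100a8, Ngp, Camp, Ltf and Hp, with old MPP3 at the top, then young MPP3, old MPP4 and young MPP4. For Ltf, which was dim throughout, the young MPP3 and old MPP4 means were nearly level, at 0.232 and 0.231. S100a9 had the same order at the top but young MPP4 (mean 1.26) above old MPP4 (mean 1.14), and Cxcr2 had old MPP4 (mean 0.401) above young MPP3 (mean 0.342). Between neighbors in that order, the arrays did not overlap for S100a8 between old and young MPP3, for Camp and Hp between young MPP3 and old MPP4, and for Cxcr2 between old MPP3 and old MPP4. All other neighbors overlapped. Old and young MPP4, next to each other for 6 of the 8 members, could be told apart for none of them by range. Lcn2 had another order, with its highest mean in young MPP4 (0.236), then young MPP3 (0.224), old MPP3 (0.211) and old MPP4 (0.192).

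The 3 old MPP3 arrays were not alike. Replicate 2 had the highest value of the 3 for 7 of 8 members and replicate 3 for Ngp. Replicate 1 lay above the range of young MPP3 for 4 members, replicate 2 for 7 and replicate 3 for 5. Replicate 1 lay below it for 1 member (Ltf), replicate 2 for 0 and replicate 3 for 1 (Lcn2). The share of all genes outside that range on each array was not computed, so these counts only describe the members. The summed value of the 8 members was 10.4, 14.9 and 9.95 on the old MPP3 arrays, against 5.71, 8.32 and 6.76 on the young MPP3 arrays, so every old array exceeded every young one. Replicate 3 was above the young range for S100a8, S100a9, Ngp, Ltf and Cxcr2, within it for Hp and Camp and below it for Lcn2.

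**Figure D3:**
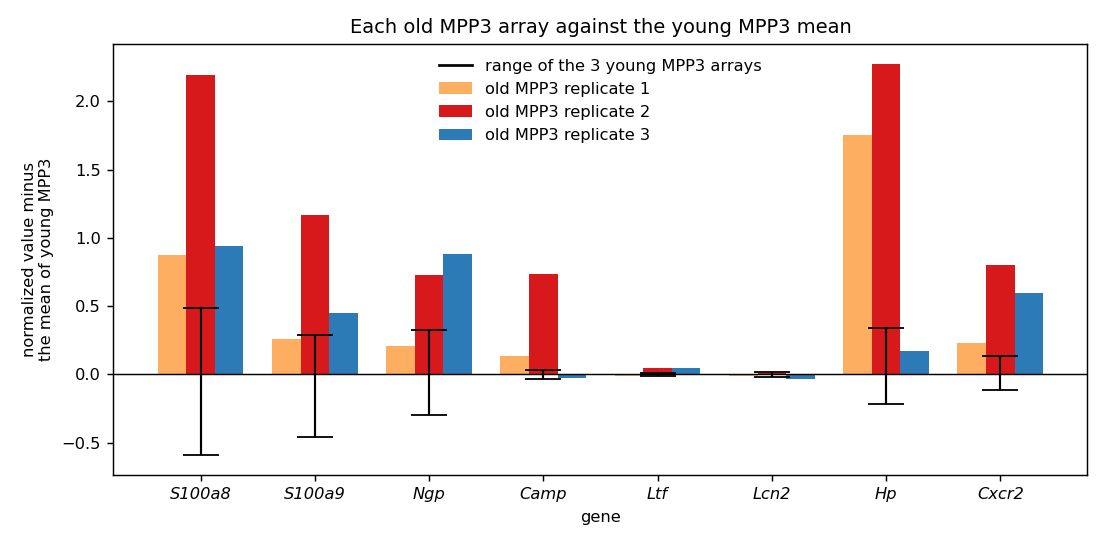
Value of each member on each old MPP3 array minus the mean of the 3 young MPP3 arrays (vertical axis, normalized value, no unit). Bars are the 3 old replicates and whiskers the range of the young arrays around their mean; replicate 2 is highest for 7 of 8 members, and replicate 3 has little Hp (1.29) beside 2.88 and 3.40 in the other replicates.

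Markers of other cells moved among the same arrays. The summed value of 9 mast cell, basophil and eosinophil markers was 15.6, 14.7 and 7.65 in old MPP3, against 6.30, 9.17 and 8.72 in young MPP3. That of 9 measured monocyte markers was 8.15, 9.04 and 5.75 in old MPP3, against 5.52, 4.79 and 4.84 in young MPP3, with 8 of 9 markers at a positive difference for both lists. The 9 measured B lineage markers summed to 5.58, 5.36 and 10.9 in old MPP3, against 10.5, 10.4 and 5.46 in young MPP3. Old MPP3 replicate 3 was thus lowest of its group for the first of these lists and for monocyte markers and highest for B lineage markers. Among the members it was lowest of its group for Hp, Camp and Lcn2, the last of which was dim throughout. It was highest for Ngp and in the middle for S100a8, S100a9, Ltf and Cxcr2. The 9 measured T and NK markers summed to 5.62 to 6.06 in old MPP3, against 4.85 to 5.82 in young MPP3, and the 6 measured erythroid markers to 4.81 to 5.77 in old MPP3, against 5.41 to 6.70 in young MPP3. In MPP4 the mast cell, basophil and eosinophil markers summed to 4.58 to 5.08 in old mice, against 3.71 to 5.13 in young mice, the monocyte markers to 5.39 to 5.72 in old mice, against 4.82 to 5.44 in young mice, and the B lineage markers to 6.28 to 7.65 in old mice, against 4.98 to 9.82 in young mice. The part of these markers in the members' values was not tested.

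Genes of the antigens used to remove mature myeloid cells were measured too. Ly6g, which encodes an antigen of the Gr1 antibody, was between 0.0577 and 0.0868 on all 14 arrays, near the dimmest probe sets. Itgam, which encodes CD11b, had values of 0.701, 0.851 and 0.237 in old MPP3, against 0.512, 0.401 and 0.425 in young MPP3, 0.602 to 0.673 in old MPP4 and 0.541 to 0.922 in young MPP4. Its old minus young MPP3 difference was 0.150 (SE 0.165, adjusted p 0.841 in limma).

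Other stages of granulocyte development were followed in 4 lists, none of which had a gene past the adjusted threshold in any of the comparisons. Of 9 primary granule genes, all 9 had a positive old minus young MPP3 difference, against 50.1% of all genes, with a median of 0.968. In MPP4, 7 of 9 had one, against 49.8% of all genes, with a median of 0.0304. For age in MPP3, 1 of 9 had no overlap with old higher, against 6.14% of all genes. None of the 9 had an unadjusted p under 0.05 there in limma, against 3.44% of all genes with old higher. Mpo, encoding myeloperoxidase, had values of 5.81, 6.03 and 4.17 in old MPP3, against 4.05, 4.63 and 3.85 in young MPP3 (difference 1.16, SE 0.548, adjusted p 0.655 in limma). Elane, encoding neutrophil elastase, had 2.60, 3.43 and 1.93 in old MPP3, against 1.17, 2.05 and 1.46 in young MPP3 (difference 1.09, SE 0.440, adjusted p 0.615 in limma). As for Hp, Camp and Lcn2 but not the other members, replicate 2 was highest and replicate 3 lowest in both genes. The protease genes Ctsg and Prtn3 had old minus young MPP3 differences of 0.998 and 0.351 (adjusted p 0.615 and 0.855 in limma).

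Of 12 other secondary granule and metamyelocyte genes, 10 had a positive old minus young MPP3 difference with a median of 0.110, and 6 had one in MPP4 with a median of -9.64e-04. Fcnb, encoding the lectin ficolin B, had values of 1.10, 1.89 and 0.779 in old MPP3, against 0.652, 0.604 and 0.590 in young MPP3, with no overlap (difference 0.642, SE 0.287, adjusted p 0.638 in limma). Mmp8, encoding neutrophil collagenase, stayed between 0.0596 and 0.145 on all 14 arrays, and Chil3, encoding a chitinase-like protein, had 0.121 to 0.181 in old MPP3, against 0.0804 to 0.147 in young MPP3. The difference of Cd177, a neutrophil surface protein, was 0.202 in MPP3 (SE 0.129, adjusted p 0.717 in limma). Olfm4, a secondary granule gene named after its values were seen, was also without overlap but lower in old MPP3 (mean 0.160) than in young MPP3 (mean 0.226), a difference of -0.0666 (adjusted p 0.624 in limma). Fcnb and Olfm4 were each 1 of 12 genes without overlap in their direction. Over all genes, 6.14% had no overlap with old MPP3 higher and 8.04% with old MPP3 lower. Secondary granule genes outside the 8 members were thus positive in MPP3 for 10 of 12, against 50.1% of all genes, and none passed the adjusted threshold. Mmp8, like Ltf and Lcn2, was dim everywhere.

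Of 20 measured genes of tertiary granules and mature neutrophils, 10 had a positive and 10 a negative old minus young MPP3 difference, with a median of 0.00273. Mmp9, encoding gelatinase B, was between 0.193 and 0.325 on all 14 arrays. Csf3r, encoding the G-CSF receptor, had a difference of -0.277 (SE 0.156, adjusted p 0.687 in limma). Clec4e, an innate immune receptor gene named after its values were seen, was the single gene of this list with an unadjusted p under 0.05 in MPP3, at 1.38, 1.40 and 1.40 in old MPP3, against 1.06, 0.972 and 1.26 in young MPP3 (difference 0.301, SE 0.0762, adjusted p 0.507 in limma). That is 1 of 20 genes, against 3.44% of all genes with old higher. In MPP4, 7 of the 20 had a positive difference, with a median of -0.0165. An unadjusted p under 0.05 in limma was found for 3 with old higher (Clec4e, Clec4d and Itgb2), against 4.5% of all genes. It was found for 2 with old lower (Mmp25 and Dgat2), against 5.27% of all genes. All of these were named after their values were seen. Clec4e was at 1.31, 1.39 and 1.33 in old MPP4, against 0.443 to 0.980 in young MPP4 (difference 0.614, SE 0.112, adjusted p 0.287 in limma).

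Of 9 transcription factors of granulocyte differentiation, 6 had a positive old minus young MPP3 difference, with a median of 0.0933, and 3 had one in MPP4. Cebpe, encoding C/EBPε, had values of 1.13, 1.76 and 1.45 in old MPP3, against 1.10, 1.12 and 1.01 in young MPP3, and 0.705 to 0.843 in old MPP4, against 0.735 to 0.945 in young MPP4. Its arrays did not overlap between the ages in MPP3 (difference 0.369, SE 0.162, adjusted p 0.633 in limma), and its age difference in MPP3 minus that in MPP4 was 0.481 (SE 0.161, unadjusted p 0.0121, adjusted p 0.699 in limma). Cebpe was 1 of 9 factors without overlap in MPP3, against 6.14% of all genes with old higher. Cebpa, the factor of early myeloid commitment, had an MPP3 difference of 0.315 (adjusted p 0.652 in limma). Gfi1 and Spi1, encoding GFI1 and PU.1, had 0.0609 and 0.0933 (adjusted p 0.888 and 0.917 in limma).

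**Figure D4:**
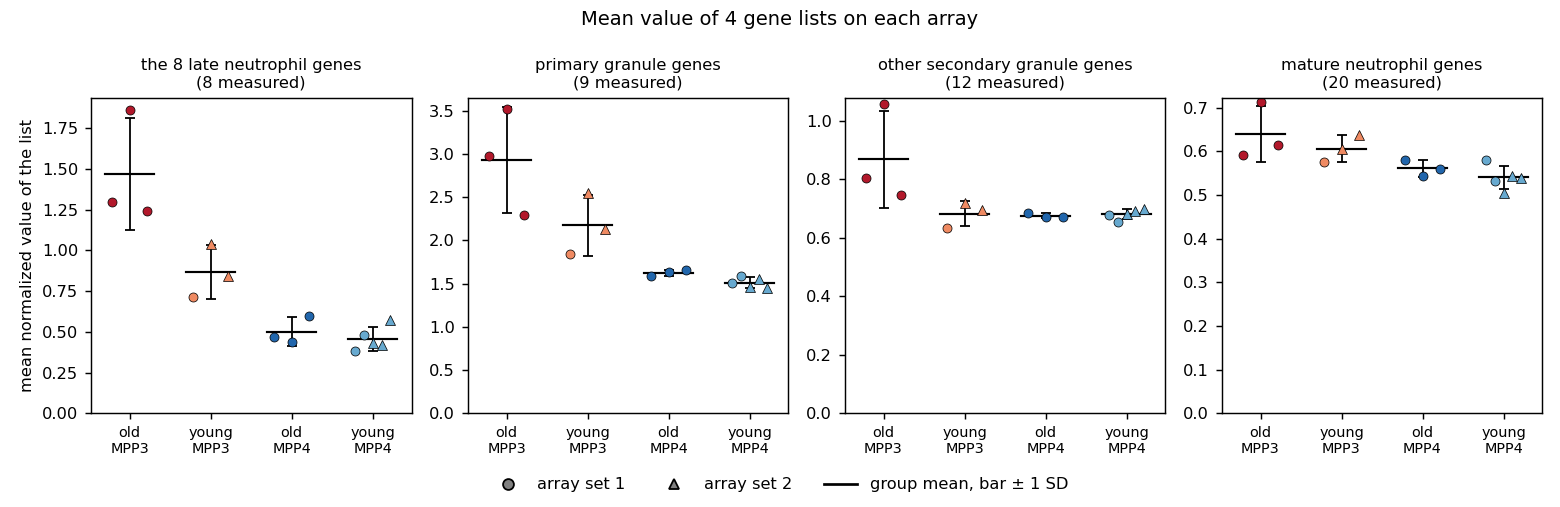
Mean normalized value (vertical axis, no unit) of the measured genes of each list on each array, with groups along the horizontal axis as old MPP3, young MPP3, old MPP4 and young MPP4 1 point per array (circles set 1, triangles set 2), a line at the group mean and a bar of 1 SD on each side. The 8 members averaged 1.24 to 1.86 in old MPP3 and 0.713 to 1.04 in young MPP3, and the mature neutrophil list overlaps between the ages in MPP3.

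Members differed in how far they moved with one another. Over the 14 arrays, the Pearson correlation of each member with the mean standardized value of the other members was 0.966 for S100a8, 0.899 for S100a9, 0.881 for Camp, 0.856 for Hp, 0.837 for Ngp, 0.745 for Cxcr2, 0.663 for Ltf and -0.0697 for Lcn2. These arrays share 4 groups, so part of each value is the groups' order. After each group's mean was removed it was 0.819 for S100a8, 0.664 for S100a9, 0.663 for Camp and 0.351 to 0.431 for the other members. Among pairs, S100a8 with S100a9 (0.942, and 0.771 within groups) and Camp with Hp (0.917, and 0.786 within groups) were the most alike, and Hp with Ngp came to -0.195 within groups. The genes outside the set with the highest correlation with the members' mean over the 14 arrays were Fcgr3 (0.965), encoding an activating IgG receptor, Baz1a (0.950), encoding a chromatin remodeling subunit, Cybb (0.950), encoding the catalytic subunit of the phagocyte oxidase, Elane (0.942) and Hsd11b1 (0.940), encoding a glucocorticoid-activating enzyme. With group means removed they were Zfp954 (0.908), Pus7l (0.899), Cers6 (0.883), Rev1 (0.880) and Itgb1bp2 (0.878), none of them among the first 5. These are the highest of 19155 genes over few arrays and are given as a description.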

How the data were processed

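The authors deposited 1 normalized score per probe set and array, made from Affymetrix Mouse Gene ST 1.0 arrays of linearly amplified RNA by RMA and then quantile mapping onto a standard exponential distribution. Within 0.01, 92.3% of them fell on a whole rank among 25307 probe sets. They were used as deposited. Of 22115 probe sets, 2135 were not annotated and 744 had several symbols, and these were left out. For the 76 genes with several probe sets the one with the highest mean was kept, which left 19155 genes. Raw scanner intensities were not used here.

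Group means were compared with limma 3.58.1 (lmFit, eBayes) in R 4.3.3, with two-sided tests and Benjamini-Hochberg adjustment over all genes at 0.05. Each pair of groups had its own fit, and the difference of age differences used all 14 arrays. The study's own test, SAM, was not run, and limma was used in its place. The labels give biological replicates but not how many mice each held. Genes were placed on GRCm38.p6 through Entrez numbers. The procedure was tested on simulated data. Figures were drawn with Python 3.11.15.

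Members and gene lists (primary granule, other secondary granule, mature neutrophil, transcription factors, monocyte, B lineage, T and NK, erythroid, mast cell with basophil and eosinophil, and sorting markers) were chosen with earlier results of these data known. Some genes of these lists are not reported here, and each list is given by its measured genes. Of the sorting markers, 1 of 4 measured had a positive old minus young MPP3 difference. Named genes were all members, fixed examples of each granulocyte list, list genes past the threshold in an age comparison (there were 0) and the 5 genes most correlated with the members. Outside this rule, Olfm4, Clec4e, Clec4d, Itgb2, Mmp25, Dgat2, Kit and Cd48 were named after their values were seen. Alternatives were 1 fit of all arrays, a replicate block, robust estimation with a variance trend, a filter on dim genes, array weights, every probe set, normal scores, median centering, each array left out and the arrays of set 1 alone. The arrays of set 2 alone were added after the data had been seen.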

Additional observations from a re-analysis of the deposited data

How the results depend on the processing

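Calls were sensitive where counts were near 0. For old against young MPP3, 0 genes passed and 9 did in 1 fit of all arrays and 1 over the arrays of set 1. For old against young MPP4, 0 passed, with 1 in 1 fit, 304 with array weights and 0 to 15 when 1 array was left out (15 without young MPP4 replicate 2). For MPP3 against MPP4 in old mice, 0 passed, with 27 in 1 fit, 1 without the dimmest 33.3% of genes, 8 on normal scores and 0 to 3 when 1 array was left out. For MPP3 against MPP4 in young mice, 25 passed, with 48 under a variance trend, 1808 with array weights, 59 without dim genes, 52 on normal scores, 0 over set 1, 1492 over set 2 and 8 to 108 when 1 array was left out (108 without young MPP3 replicate 1). For the difference of age differences, 0 passed, with 2 under a variance trend, 574 with array weights and 0 to 10 when 1 array was left out (10 without old MPP3 replicate 3). The cause was not tested.

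The members' median difference kept its sign under every alternative that gave one. On normal scores it was 0.148 for age in MPP4 and 0.481 between populations in young mice, and with array weights it was 0.314 for age in MPP3 and 0.276 for the difference of age differences. When 1 array was left out it ran from 0.386 to 0.753 for age in MPP3, from 0.0403 to 0.0810 for age in MPP4, from 0.507 to 0.781 between populations in old mice, from 0.214 to 0.378 in young mice and from 0.352 to 0.626 for the difference of age differences. It was not computed without dim genes, since Ltf and Lcn2 were dropped.

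Signs turned for small differences. With 1 array left out, ranges were -0.171 to 0.193 (S100a8) and -0.264 to 0.0141 (S100a9) for age in MPP4, -0.0535 to 0.0718 for Cxcr2 between populations in young mice, and -0.0272 to 0.00437 (Ltf) and -0.0482 to 0.335 (Camp) for the difference of age differences. Over set 1, S100a9 (0.166) and Camp (-0.00294) for age in MPP4, Lcn2 (0.00290) for age in MPP3 and Ltf (0.0151) for the difference of age differences turned. Array weights turned Ltf for age in MPP3 (-7.84e-04) and Cxcr2 in young mice (-0.0388), and set 2 turned Cxcr2 (-0.0371). Of the member results under alternatives, 653 kept direction and side of the threshold, 20 changed sign and 13 came to pass it.

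Same-numbered arrays did not consistently deviate together (correlations -0.192 to 0.407), and the main fits used no pairing. With few arrays per group and the division into array sets, these correlations cannot decide whether same-numbered arrays shared mice. With a replicate block the 25 genes between populations in young mice became 0 and the other counts stayed at 0. The block turned S100a9 for age in MPP4 (0.0882) and Lcn2 in young mice (0.00299) and changed no other member's direction.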
